A study of Sus scrofa with 4 samples.

Results

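Insulin and insulin-like growth factor (IGF) signalling genes were followed in porcine induced pluripotent stem cells with and without hairpin RNA against LIN28A. The set comprised 10 genes picked by symbol, each with a single row among the 16026 genes of the deposited table: the ligand IGF2, the receptors IGF1R, INSR and IGF2R, the receptor substrates IRS1 and IRS2, and the binding proteins IGFBP2, IGFBP3, IGFBP4 and IGFBP5. The cells, from the Bamei black pig breed, had a genotype label of either Negative Control (2 libraries, control 1 and 2) or shLin28a (2 libraries, knockdown 1 and 2), and every library carried a development stage of 26.5 days. The labels name no vector, promoter, hairpin sequence or clone, and leave open if each library is its own culture; p-values therefore cover the spread among these 4 libraries, which may be technical. Polyadenylated RNA was sequenced on the BGISEQ-500, and the purpose of the series, per its title, was to relate LIN28A to DUSP phosphatases, MAPK signalling and pluripotency.

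Insulin and IGFs act through receptor tyrosine kinases at the cell surface, INSR and IGF1R, which phosphorylate the docking proteins IRS1 and IRS2 and so recruit PI3 kinase, AKT and mTOR. IGF2R carries no kinase and delivers IGF2 to lysosomes, while the secreted IGFBPs hold IGFs outside the cell and set how much of them reaches a receptor. LIN28A binds precursors of the let-7 microRNAs and keeps them from maturing, and in mouse and human IGF1R, INSR and IRS2 have been reported as let-7 targets, so the pathway is a known downstream branch of LIN28A. The let-7 microRNAs were not measured here.

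The 4 libraries differed in depth by 4.93-fold, from 2400985 summed counts in knockdown 2 to 11847343 in control 1. LIN28A was at 32.62 and 17.23 FPKM (a level corrected for transcript length and for library depth) in control 1 and 2, against 3.14 and 2.58 in knockdown 1 and 2, so both knockdown libraries lay below both controls. Its log2 fold change was −2.92 ± 0.49 (SE); edgeR gave an adjusted p of 0.259 and DESeq2 one of 0.0110, with a range of 0.0110 to 0.853 over the alternatives without a replicate block. Of 17 pluripotency markers 10 had a row. POU5F1 and SOX2 were well above 0 in all libraries, whereas ESRRB had at most 1 count and NANOG, listed as a pair of gene entries, at most 7.37 counts per entry. The epithelial gene EPCAM had 29 and 30 counts in the controls against 1 and 2 in the knockdown, and CDH1 15 and 32 against 1 and 1. After TMM scaling, 4 of the 7 tested list genes were wholly lower in the knockdown and 1 wholly higher. The shares of all tested genes were 22.9% and 18.8%. The list and its 4 lower genes include LIN28A, the target of the hairpin, whose reduction was set by the design. DESeq2 called LIN28A and SALL4 lower. SALL4, named after its values were seen, was at 19.16 and 19.18 against 7.71 and 3.25 FPKM. The summed level of that list was 284, 253, 207 and 113 CPM (counts corrected for library depth but not for length) in control 1, control 2, knockdown 1 and knockdown 2. With edgeR's quasi-likelihood test and Benjamini-Hochberg adjustment, no gene of 11967 tested had an adjusted p under 0.05 (0.0%), while 923 (7.71%) had an unadjusted p under 0.05 and DESeq2 called 130 of the 12610 genes to which it gave an adjusted p (1.03%).

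Binding protein IGFBP2 was by far the highest, IGF2R, IGF1R and IRS1 were intermediate, and IGF2, INSR, IGFBP3 and IGFBP4 were low in the control cells. After LIN28A reduction the differences stood in the low members: IGF2, IGFBP3, IGFBP4, IGFBP5 and INSR had both knockdown libraries above both controls, and the abundant receptors and substrates were not separated by group in FPKM. In the edgeR fit of all 4 libraries without a replicate block, no member was called over all genes. In that fit 3 members (IGF2, IGFBP3 and IGFBP5) had an unadjusted p under 0.05 in the upward direction, where 4.26% of all tested genes did so. DESeq2 called IGFBP3 alone, where 0.761% of all genes were called upward. After TMM scaling, 5 of the 9 tested members had no overlap between the groups, each higher in the knockdown (INSR, IGF2, IGF2R, IGFBP3 and IGFBP5), against 41.7% of all tested genes without overlap and 18.8% without overlap and higher; none was wholly lower, against 22.9%. INSR, IGF2 and IGFBP3 passed the filter on low counts through the knockdown libraries alone, and IGFBP4 did not pass it, so the number of high members among those tested is partly fixed by the filter.

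**Figure D1:**
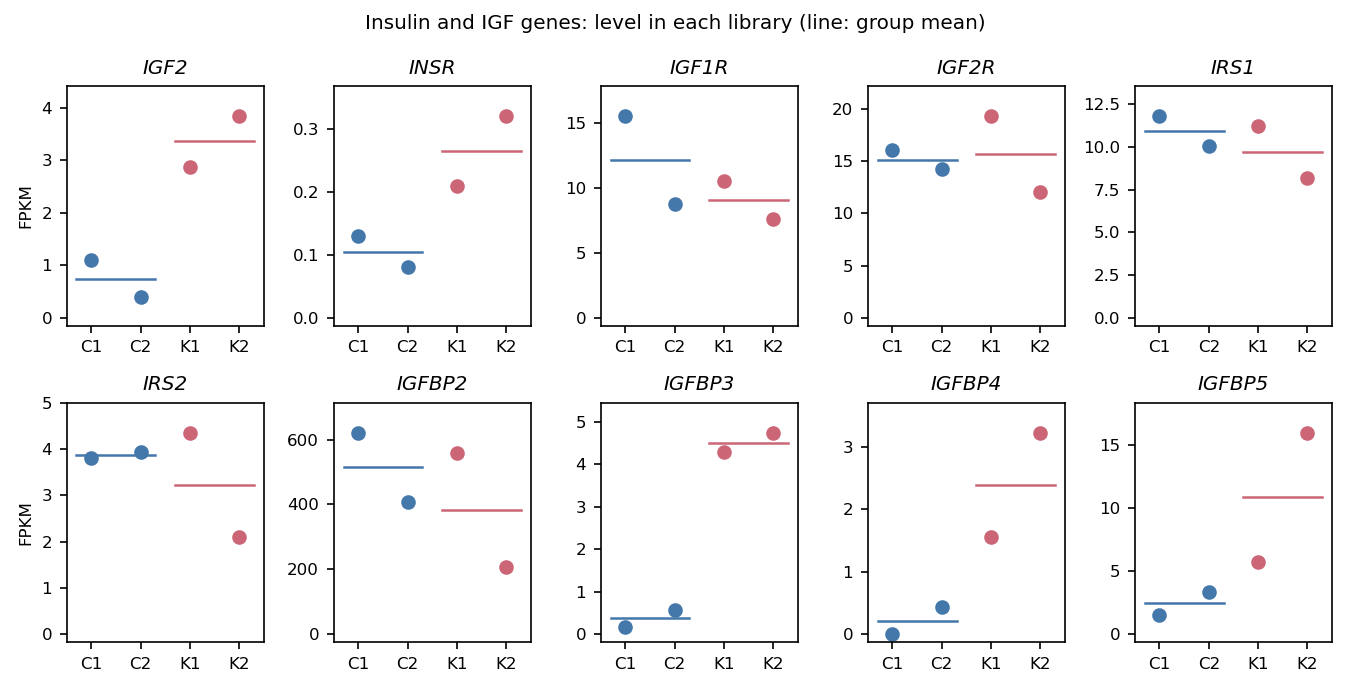
FPKM of each of the 10 members (vertical axes, linear) in control 1 and 2 (C1, C2, blue) and knockdown 1 and 2 (K1, K2, red), with a line at each group mean. IGF2, INSR, IGFBP3, IGFBP4 and IGFBP5 have both red points above both blue points, and the other 5 panels overlap.

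IGF2, the fetal growth factor of the family and an imprinted gene in mammals, lies on chromosome 2 at 1469183 to 1496417 of Sscrofa11.1. Control 1 held 14 of its counts and control 2 held 3, whereas 25 fell in knockdown 1 and 10 in the shallow knockdown 2. Per length these were 1.1, 0.39, 2.88 and 3.84 FPKM. The groups did not overlap, and the lowest knockdown library was 2.62 times control 1. The control mean was 0.745 ± 0.502 and the knockdown mean 3.36 ± 0.679 FPKM (SD, n = 2 each). For IGF2 the edgeR log2 fold change was 2.28 ± 0.68 (SE, 95% interval 0.55 to 4.01), with an unadjusted p of 0.0189 and an adjusted p of 0.541. The estimate was 3.22 without control 1, 1.86 without knockdown 2, and 1.34 on the log2 (FPKM + 1) scale, which understates changes of low genes. By counting error alone, 35 summed knockdown counts against 17 control counts gave a ratio per summed count of 3.73 (95% exact interval 2.04 to 7.11). Among the genes of the table, 32.0% and 24.8% lay below IGF2 in control 1 and 2, against 39.5% in knockdown 1 and 47.3% in knockdown 2. The neighbouring INS, which encodes insulin and is separated from IGF2 by 424 bases, had 2 counts in knockdown 1 and 0 in the other 3 libraries. IGF1 had 1, 1, 0 and 3 counts in control 1, control 2, knockdown 1 and knockdown 2. These 2 genes were looked at after their values were seen.

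IGF1R, the kinase receptor for IGF1 and IGF2 (chromosome 1, 137383623 to 137691038), was at 15.56 and 8.75 FPKM in control 1 and 2 and at 10.59 and 7.66 in knockdown 1 and 2. Control 1 stood apart from the other 3 libraries, and the controls differed from each other by 1.78-fold, more than the knockdown libraries did (1.38-fold). The log2 fold change was −0.31 ± 0.32 (SE, 95% interval −1.12 to 0.51) with an edgeR adjusted p of 0.733, and it was 0.13 without control 1. The interval includes both no difference and a reduction to 0.461 of the control level. Counts and FPKM of IGF1R do not scale alike in every library, because the effective transcript length implied by their ratio was 10138, 10178 and 10105 bases in control 1, control 2 and knockdown 1 but 8697 in knockdown 2. Such a spread, above 1.1-fold between libraries, was found in 10.2% of the 4381 genes with at least 100 counts and 1 FPKM in every library; IGF2R and IGFBP2, the other 2 members in that class, did not have it. RSEM weights the length by the transcript models it assigns reads to, and IGF1R has 4 RefSeq models; it also overlaps PGPEP1L, which had 15.06 counts or fewer per library, and its counts were not whole.

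INSR, the insulin receptor (chromosome 2, 71797209 to 71939923), was close to the limit of detection. It had 14, 5, 16 and 7 counts, or 0.13 and 0.08 FPKM with the control hairpin and 0.21 and 0.32 with the LIN28A hairpin. Both knockdown libraries lay above both controls, but with wide counting error: the 95% Poisson intervals were 0.646 to 1.98 CPM in control 1 and 1.17 to 6.01 CPM in knockdown 2. The log2 fold change was 1.49 ± 0.64 (SE, 95% interval −0.12 to 3.10), with an edgeR adjusted p of 0.606. It ran from 0.19 on the log2 (FPKM + 1) scale to 2.01 without knockdown 1. The IGF1R level per length was 120 and 109 times that of INSR in the controls and 50.4 and 23.9 times in the knockdown libraries, so transcripts of the IGF receptor exceeded those of the insulin receptor in every library.

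IGF2R, the IGF2 clearance receptor and mannose-6-phosphate receptor (chromosome 1, 7369485 to 7472480), varied least of the 3 receptors over the 4 libraries. Control levels were 16.09 and 14.20 FPKM, and the knockdown levels of 19.29 and 12 lay on either side of them. After TMM scaling, which assigns knockdown 2 a factor of 0.798, both knockdown libraries were above both controls instead; with upper-quartile factors or library totals they overlapped again in CPM. The log2 fold change was 0.24 ± 0.22 (SE, 95% interval −0.31 to 0.80), and the edgeR adjusted p was 0.703. The level of IGF2R was 1.03 times that of IGF1R in control 1 and 1.57 to 1.82 times in the other 3 libraries.

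IRS1, a docking protein that links the receptors to PI3 kinase (chromosome 15, 128245846 to 128307321), varied least of all members. Control levels of 11.81 and 10.08 FPKM overlapped with knockdown levels of 11.26 and 8.19. The log2 fold change was 0.04 ± 0.19 (SE, 95% interval −0.44 to 0.52), an interval that corresponds to 0.736 to 1.44 times the control level; its sign was negative with upper-quartile factors, library totals, either FPKM scale and without control 2. IRS2, the docking protein that predominates in liver and beta cells (chromosome 11, 76626158 to 76654639), had control levels of 3.81 and 3.94 FPKM, a level of 4.35 in knockdown 1 and one of 2.10 in knockdown 2. The knockdown libraries again lay on either side of the controls, and the log2 fold change of IRS2 was −0.06 ± 0.27 (SE, 95% interval −0.74 to 0.62), or 0.16 without knockdown 2. The edgeR adjusted p was 0.947 for IRS1 and 0.944 for IRS2. IRS1 transcripts exceeded those of IRS2 by 3.10- and 2.56-fold in the controls and by 2.59- and 3.90-fold in the knockdown.

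**Figure D2:**
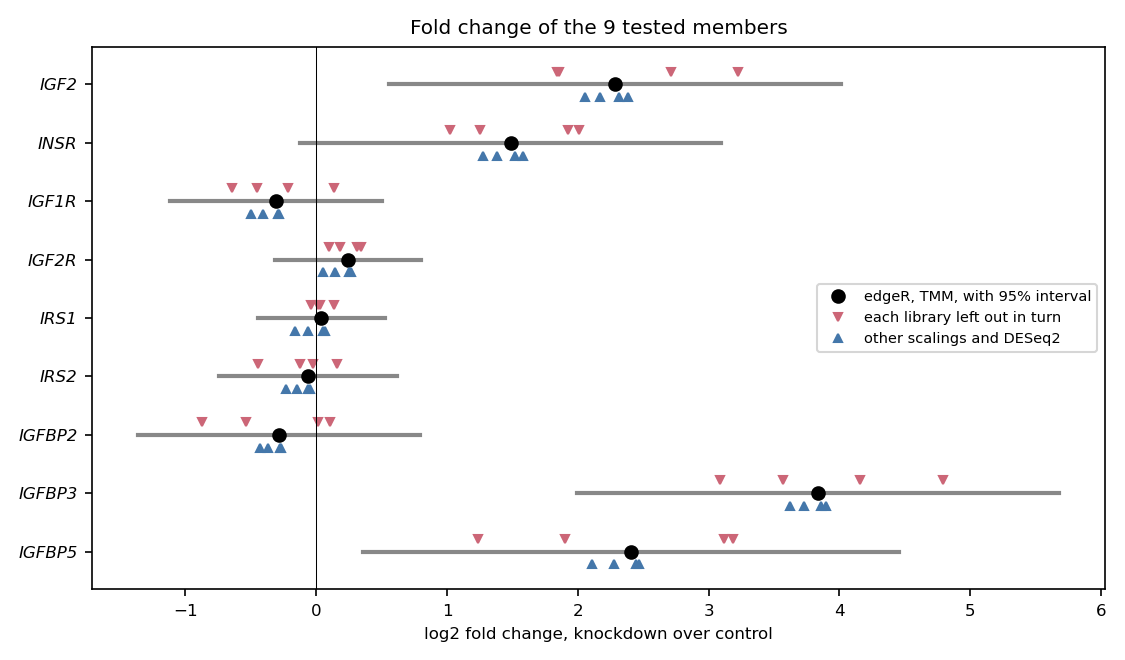
Log2 fold change of knockdown over control for the 9 members that passed the filter on low counts (horizontal axis). Black points and grey bars give the edgeR estimate with its unadjusted 95% interval, red triangles the values with each library left out in turn, and blue triangles other scalings and DESeq2. IGF2, IGFBP3 and IGFBP5 have intervals above 0, INSR reaches −0.12, and the receptors and substrates IGF1R, IGF2R, IRS1 and IRS2 lie around 0.

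IGFBP2, the binding protein typical of embryonic tissue (chromosome 15, 118822092 to 118850985), was among the most abundant transcripts of these cells. The controls held 9144 and 3636 of its counts against 5585 and 619 with the LIN28A hairpin, which per length came to 620.9 and 409.01 against 558.32 and 206.08 FPKM. Between 97.5% and 99.2% of the table's genes lay below it in each library. The low library was knockdown 2, while knockdown 1 lay between the controls. The control mean was 515 ± 150 and the knockdown mean 382 ± 249 FPKM (SD, n = 2 each), and the log2 fold change was −0.28 ± 0.43 (SE, 95% interval −1.36 to 0.79) with an edgeR adjusted p of 0.817. The estimate rested on knockdown 2: it was 0.11 without that library and −0.87 without knockdown 1, and it was 0.02 without control 1.

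IGFBP3, the main IGF carrier of serum (chromosome 18, 50002921 to 50009425), gave the largest difference of any member. It was counted 2 and 4 times in control 1 and 2, against 33 and 11 times in knockdown 1 and 2. Control 1 stood at 0.18 and control 2 at 0.58 FPKM, knockdown 1 at 4.28 and knockdown 2 at 4.74, so the knockdown libraries lay close together and far above both controls. The means were 0.380 ± 0.283 (SD, n = 2) and 4.51 ± 0.325 (SD, n = 2) FPKM. The edgeR log2 fold change was 3.83 ± 0.73 (SE, 95% interval 1.99 to 5.67), with an unadjusted p of 0.00277 and an adjusted p of 0.287. In DESeq2 the adjusted p of IGFBP3 was 0.0222, past the threshold; over the alternatives without a replicate block the adjusted p ran from 0.0222 to 0.943 and the log2 fold change from 2.01 to 4.79. Single control libraries moved the estimate of IGFBP3, to 3.09 without control 1 and 4.79 without control 2. With 44 knockdown counts against 6 control counts, the ratio per summed count was 13.3 (95% exact interval 5.65 to 38.2), counting error only. The 95% Poisson intervals of the single libraries did not overlap between the groups, since the upper bounds were 0.610 and 1.44 CPM in the controls and the lower bounds 2.82 and 2.29 CPM in the knockdown.

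IGFBP4, a binding protein known as an inhibitor of IGF action and a substrate of the protease PAPPA (chromosome 12, 21966524 to 21980043), was seen only at the edge of detection. Its counts were 0 and 2 against 8 and 5, or 0, 0.44, 1.56 and 3.22 FPKM. The 0 counts in control 1 allow up to 0.253 CPM at the level of 3 counts, or 0.311 CPM as the 95% Poisson upper bound. Knockdown 1 and 2 were measured at 0.992 and 2.08 CPM. The 2 counts in control 2 have a 95% Poisson upper bound of 1.01 CPM, above the value of knockdown 1. Its summed counts of 13 against 2 gave a ratio of 11.8 (95% exact interval 2.67 to 108), counting error only. Tested without a filter on low counts, its edgeR log2 fold change was 3.66 ± 1.37 (SE), with an unadjusted p of 0.0266 and an adjusted p of 0.504; in that fit 9.32% of 15643 genes had an unadjusted p under 0.05 (6.0% upward, 3.32% downward), and 0.256% an adjusted p under 0.05 (0.179% upward, 0.0767% downward).

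IGFBP5, a binding protein that attaches to extracellular matrix (chromosome 15, 118861816 to 118877787), neighbours IGFBP2 at a distance of 10830 bases. Libraries held 15, 20, 38 and 32 of its counts, which came to 1.53 and 3.38 FPKM with the control hairpin and 5.73 and 16.00 with the LIN28A hairpin. All 4 libraries were apart from each other, with 2.21-fold between the controls and 2.79-fold between the knockdown libraries. The edgeR log2 fold change was 2.41 ± 0.81 (SE, 95% interval 0.36 to 4.46), with an unadjusted p of 0.0290 and an adjusted p of 0.588. Much of it came from knockdown 2: the log2 fold change was 1.23 without that library and 3.18 without knockdown 1, where the edgeR adjusted p was 0.0428, in a fit that called 9.88% of all tested genes. Over the alternatives without a replicate block the adjusted p of IGFBP5 ran from 0.0428 to nearly 1. The neighbours IGFBP2 and IGFBP5 thus stood in opposite order in knockdown 2, the library with the lowest IGFBP2 and the highest IGFBP5.

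The make-up of the binding protein transcripts differed by library. IGFBP2 made up 99.7% and 98.9% of the summed FPKM of IGFBP2, IGFBP3, IGFBP4 and IGFBP5 in control 1 and 2, 98.0% in knockdown 1 and 89.6% in knockdown 2. IGFBP5 held 0.246%, 0.818%, 1.01% and 6.96% in the same order, and IGFBP3 held 0.0289%, 0.140%, 0.751% and 2.06%. The shares of IGFBP3, IGFBP4 and IGFBP5 therefore put both knockdown libraries above both controls, and most so in knockdown 2, whose IGFBP2 level was the lowest and whose shares rest on 11, 5 and 32 counts. IGFBP7, a low-affinity relative found in vessel walls and stroma, and IGFBPL1, an IGFBP-like protein, were added after their values were seen. IGFBP7 was at 5.70, 19.35, 14.80 and 62.09 FPKM, so knockdown 1 lay between the controls, and its edgeR adjusted p was 0.606. IGFBPL1 was at 15.53, 29.26, 42.78 and 35.97 FPKM, higher in both knockdown libraries, with an edgeR adjusted p of 0.600.

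**Figure D3:**
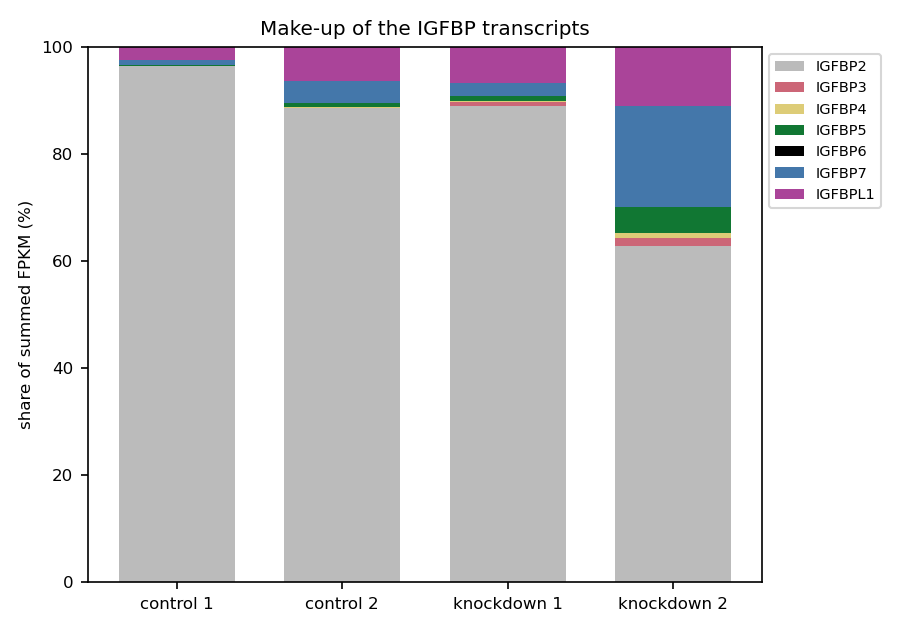
Share of each IGFBP gene in the summed FPKM of the 7 IGFBP genes with a row in the table (vertical axis, percent, from 0), one bar per library. IGFBP2 fills 96.4% and 88.5% of the bars of control 1 and 2, 89.0% of knockdown 1 and 62.8% of knockdown 2, where IGFBP7 takes 18.9%.

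Fibroblasts and other mesenchymal cells also make IGFBPs, and markers of fibroblasts varied among the libraries. Over 22 of 23 listed fibroblast genes with a row, the summed level was 729 and 1558 CPM with the control hairpin against 1134 in knockdown 1 and 3915 in knockdown 2, and 16 of the 22 genes were highest in knockdown 2. COL1A1, the main fibroblast collagen, was at 17.55, 52.77, 56.54 and 206.38 FPKM, while the proteoglycan DCN had 49, 2, 0 and 0 counts and LUM had 0, 0, 2 and 0. In bulk RNA, more cells of a type and more RNA per cell cannot be told apart. IGFBP7 stood in the order of the fibroblast list over the 4 libraries, IGFBP3 and IGFBP5 did so apart from knockdown 1, and IGF2 also differed in the order of the controls. In knockdown 1 the list was lower than in control 2, whereas IGFBP3, IGFBP5 and IGF2 were higher. Without knockdown 2, the library highest in the list, the log2 fold change was 3.57 for IGFBP3, 1.02 for INSR and 1.23 for IGFBP5. Of the other cell types, 9 endoderm markers with a row summed to 535 and 587 CPM in control 1 and 2 against 328 and 252 in knockdown 1 and 2. The 10 trophectoderm markers summed to 124 and 167 against 127 and 124 CPM, not separated by group. Within that list KRT8 was at 14.49 and 38.93 against 1.11 and 1.85 FPKM, and TFAP2A at 24.75 and 27.74 against 38.08 and 40.15. Genes of the endoderm, trophectoderm and neural lists were picked out after their values were seen. Among them DESeq2 called COL4A2 lower, of 8 endoderm genes with an adjusted p, and KRT8 lower, of 7 trophectoderm genes. It called NEUROD4, DCX and POU3F1 higher, of 14 neural genes. Over all genes with an adjusted p it called 0.27% lower and 0.761% higher. The neural list was mixed: 9 tested genes had a positive and 5 a negative edgeR log2 fold change. After TMM scaling 8 of them were wholly higher and 2 wholly lower in the knockdown, against 18.8% and 22.9% of all tested genes. The part of any of these cell type signals in the values of IGF2, INSR, IGFBP3, IGFBP4 and IGFBP5 was not tested.

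**Figure D4:**
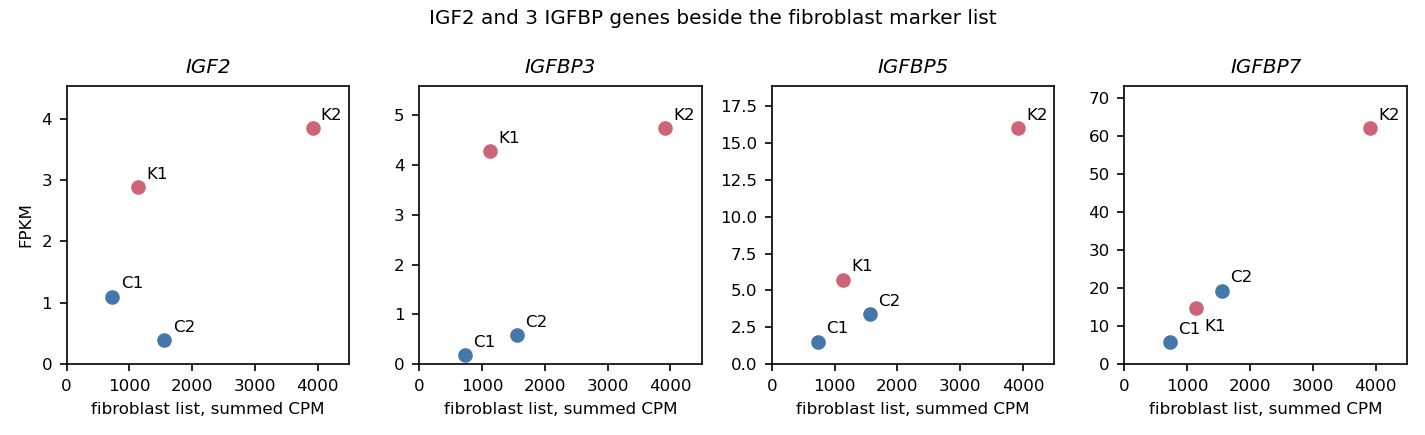
FPKM of IGF2, IGFBP3, IGFBP5 and IGFBP7 (vertical axes) against the summed CPM of 22 fibroblast markers (horizontal axes) in the 4 libraries (C1 and C2, controls, blue; K1 and K2, knockdown, red). Knockdown 1 lies to the left of control 2 in each panel but above it for IGF2, IGFBP3 and IGFBP5.

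A further list held 15 genes: other insulin and IGF ligands, receptors and binding proteins, proteases and their inhibitors, and the receptor substrate IRS4. Of these, 12 had a row and 7 were tested. None was called by edgeR over all genes or by DESeq2; at an unadjusted edgeR p under 0.05, 3 were higher (IGFBPL1, STC1 and HTRA1) and 0 lower, where 4.26% of all tested genes were higher, and the median log2 fold change was 1.63, against 0.01 over all tested genes. The list also differed between the controls, by a median of 1.08 on the log2 scale (control 2 above control 1), and knockdown 1 and 2 lay a median of 0.95 and 1.94 above the mean of the controls. HTRA1, a secreted serine protease that cleaves IGFBPs, had control levels of 3.13 and 7.08 FPKM; the knockdown levels of 13.23 and 13.62 were close to each other and above both. The log2 fold change of HTRA1 was 1.63 ± 0.46 (SE), with an edgeR adjusted p of 0.526; it was 1.12 without control 1 and 2.36 without control 2. STC1, a stanniocalcin that inhibits the IGFBP4 protease PAPPA in human, stood at 2.14 and 5.30 against 8.57 and 20.27 FPKM. For STC1 the edgeR estimate on the log2 scale was 2.22 ± 0.77 (SE, adjusted p = 0.600). STC1 was highest in knockdown 2, as IGFBP5 was, and its log2 fold change was 1.22 without that library.

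Adaptors and inhibitors that bind the receptors were tested for all 24 listed genes. Neither edgeR nor DESeq2 called any of them, and the median log2 fold change was 0.12. At an unadjusted edgeR p under 0.05, where 4.26% of all tested genes were higher and 3.45% lower, 0 were lower and 2 were higher. These were SHC2, a phosphotyrosine adaptor best known from neurons, at 1.28 and 1.24 against 6.39 and 2.28 FPKM, and SOCS3, a feedback inhibitor of cytokine and insulin receptors, at 38.09 and 34.09 against 49.54 and 56.81 FPKM. Both knockdown libraries were above both controls for each gene, with log2 fold changes of 1.97 ± 0.45 and 0.53 ± 0.20 (SE) and edgeR adjusted p of 0.364 and 0.606. SHC2 was highest in knockdown 1, without which its log2 fold change was 1.29, and so was the summed level of 15 neural markers, at 2029 and 1517 CPM in the controls and 3092 and 1450 in knockdown 1 and 2; the part of neural RNA in the SHC2 value was not tested.

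Of the list of PI3 kinase and AKT signalling, 18 of 20 genes were tested and the median log2 fold change was 0.23. None was called by edgeR over all genes, and 0 were lower at an unadjusted p under 0.05. INPP5D, an inositol phosphatase that removes the lipid signal made by PI3 kinase and is best known from blood cells, had control levels of 4.44 and 4.53 FPKM and knockdown levels of 9.40 and 10.50, with little spread within either group. Its log2 fold change was 1.39 ± 0.26 (SE); the adjusted p was 0.287 in edgeR and 0.0413 in DESeq2, within a range of 0.0388 to nearly 1 over the alternatives without a replicate block. AKT1, a kinase that carries the PI3 kinase signal and is named after its values were seen, was at 88.23 and 126.08 against 142.66 and 300.96 FPKM, with an edgeR adjusted p of 0.606.

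In the mTOR and translation list 20 of 23 genes were tested, none passed an unadjusted edgeR p under 0.05 or DESeq2, and the median log2 fold change was 0.13. EIF4EBP1, the translation repressor that mTOR inactivates, was at 8.12 and 4.74 against 11.98 and 9.04 FPKM, and MAPKAP1, a subunit of mTOR complex 2, at 24.34 and 28.71 against 28.23 and 50.15 FPKM; their edgeR adjusted p was 0.606 in each case. EIF4EBP1 did not overlap between the groups, whereas for MAPKAP1 knockdown 1 lay between the controls. In the FOXO and GSK3 list all 13 genes were tested, with a median of 0.22, none called by edgeR or DESeq2, and 1 lower at an unadjusted edgeR p under 0.05: TBC1D4, a substrate of AKT in glucose transporter traffic, at 3.07 and 4.10 against 2.30 and 1.76 FPKM. FOXO3, a transcription factor that AKT keeps out of the nucleus, was at 3.87 and 7.81 against 8.68 and 32.32 FPKM. The log2 fold change of FOXO3 was 1.28 ± 0.53 (SE) and was 0.29 without knockdown 2. Over all 85 tested genes of these pathway lists that are not among the 10 members, 8 were higher and 1 was lower at an unadjusted edgeR p under 0.05, against 4.26% higher and 3.45% lower of all tested genes. DESeq2 called INPP5D alone among them.

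**Figure D5:**
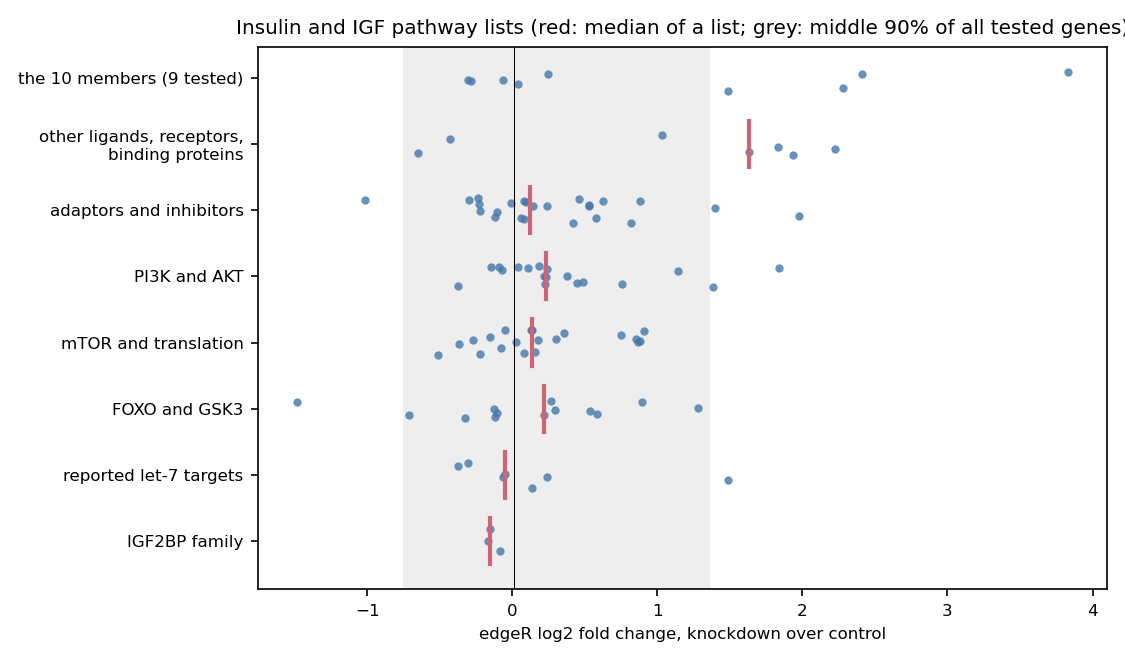
EdgeR log2 fold change of knockdown over control (horizontal axis) for each tested gene of the insulin and IGF pathway lists (blue points, shifted vertically for legibility), with the median of a list in red and the middle 90% of all 11967 tested genes, −0.74 to 1.35, in grey. The median of the ligand, receptor and binding protein list is 1.63, and those of the other lists lie between −0.16 and 0.23.

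Genes of the pathway that have been reported as let-7 targets in mouse or human were described as a list of 7: IGF1R, INSR and IRS2 with PIK3IP1, an inhibitor of PI3 kinase, AKT2, TSC1, an inhibitor of mTOR signalling, and RICTOR, a subunit of mTOR complex 2. All were tested, and the median log2 fold change was −0.05. An unadjusted edgeR p under 0.05 in either direction was found for 0 of the 7, where 7.71% of all tested genes had one. DESeq2 called none, against 1.03% of all genes to which it gave an adjusted p. With 7 genes, a count of 0 is near these shares. PIK3IP1 had control levels of 2.47 and 2.55 FPKM and was at 2.54 in knockdown 1, but at 0.68 in knockdown 2. AKT2 was at 27.37 and 22.60 against 29.51 and 34.37 FPKM, with both knockdown libraries above both controls in FPKM. Its counts of 1026 and 532 against 767 and 167 did not scale with FPKM alike in every library. On counts the log2 fold change of AKT2 was 0.24 ± 0.20 (SE), and it was 0.035 with library totals in place of TMM. TSC1 was at 8.91 and 7.36 against 8.98 and 4.82 FPKM, and RICTOR at 3.89 and 3.91 against 3.94 and 3.48. For PIK3IP1, TSC1 and RICTOR the FPKM value of knockdown 1 was thus close to that of a control library.

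The IGF2 mRNA-binding proteins, which bind and stabilise IGF2 and other transcripts, were all abundant. IGF2BP1 stood at 78.49 and 64.31 against 67.85 and 43.25 FPKM, IGF2BP2 at 93.36 and 83.91 against 80.79 and 58.35, and IGF2BP3 at 69.02 and 73.79 against 61.21 and 54.01. Knockdown 2 was the lowest library for all 3 in FPKM, and knockdown 1 lay below both controls for IGF2BP2 and IGF2BP3. The log2 fold changes were −0.17, −0.16 and −0.08, the last turning to 0.03 without knockdown 1, and none had an edgeR adjusted p under 0.802. The mRNA of IGF2 itself, described above, was higher in both knockdown libraries.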

How the data were processed

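Each of the 4 libraries has 2 sets of values in 1 table deposited by the authors. Expected counts were estimated by the authors with RSEM 1.2.12 after Bowtie2 alignment to Sscrofa11.1, per the submitters' processing notes, and are not normalised; annotation, strandedness and settings are not stated in the labels. The second set, which the authors deposited without naming a unit, was read as FPKM because the count divided by the value scales between libraries as the summed counts do (0.602, 0.680 and 0.203 of control 1, against 0.601, 0.680 and 0.203 for the sums). All 16026 gene identifiers matched RefSeq's table of the same build, the source of positions.

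Rounded counts entered edgeR 4.0.16 in R 4.3.3, with TMM factors, filterByExpr at a minimum count of 10, and the quasi-likelihood test with no covariate, with 2 residual and 3.30 prior degrees of freedom. Standard errors are the log2 fold change over the square root of F; 95% intervals use these degrees of freedom and are unadjusted. The fit was tested on simulated counts with a constant dispersion and independent libraries, which does not show how it performs on these data. Poisson and ratio intervals cover counting error only. An exact permutation test of 2 against 2 libraries cannot go below p = 0.333 and was not used. Alternatives were DESeq2 1.42.0, other scalings, no filter, limma 3.58.1 on log2 FPKM plus 1 or 0.1, each library left out, and, added after the values were seen, a replicate block. Named were the members, LIN28A, the 2 genes of smallest edgeR p per pathway list, and every gene of the let-7 target and IGF2BP lists. A result that this rule would name is not reported here. Members and lists were chosen with earlier results of these data known. No sequence is printed, since none was used here.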

Additional observations from a re-analysis of the deposited data

How the results depend on the processing

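The titles end in 1 or 2 in both groups, and nothing in the labels says that a number marks a shared culture or batch. Across 11967 genes, deviations of same-numbered libraries from their group means had a correlation of 0.56. A fit with this number as a replicate block, chosen after seeing the data, has 1 residual degree of freedom and an infinite prior one, so each gene's p rests on the pooled spread; it called 1338 genes (11.2%), among them 3 members (IGF2, IGFBP3 and IGFBP5) and 13 pathway genes, all higher, against 0, 0 and 0 without the block. The members' log2 fold changes under the block had the same sign as without it. The count of members called over all genes was 0 with edgeR and TMM, 1 (IGFBP3) with DESeq2, and 0 to 1 with a library left out; the 1 was IGFBP5 without knockdown 1, a fit that called 1204 of 12183 genes. Of the pathway genes, 0 were called in the same fit, 1 (INPP5D) with DESeq2, and 0 to 11 with a library left out, all 11 higher and all without knockdown 1. Of the members, 5 had no overlap between the groups, 4 with upper-quartile factors or library totals, and 6 to 8 with a library left out; without control 2 or knockdown 1 it was 8 (5 higher, 3 lower), where 70.4% and 87.4% of all tested genes also had none. A lone library of a group is assumed there to vary like the other group's. Library totals in place of TMM moved the log2 fold change by a median of −0.19 over all genes, and log2 FPKM plus 1 or 0.1 by −0.22 and −0.24.

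Among 110 alternative values of the members, 96 kept direction and side of the threshold and 9 changed sign; of 216 values of the other named genes, 197 kept both and 8 changed sign. IRS1 was −0.060 with upper-quartile factors, −0.16 with library totals, and −0.17 and −0.18 with log2 FPKM plus 1 and 0.1, and RICTOR was −0.082 with library totals and −0.059 and −0.073 on those FPKM scales. With a library left out, the log2 fold change ran from −0.64 to 0.13 for IGF1R, −0.043 to 0.13 for IRS1, −0.45 to 0.16 for IRS2, −0.87 to 0.11 for IGFBP2, −1.47 to 0.032 for PIK3IP1, −0.32 to 0.13 for TSC1, −0.021 to 0.27 for RICTOR and −0.23 to 0.032 for IGF2BP3. The cause was not tested. Depth limits INSR, IGF2, IGFBP3 and IGFBP4 most, each with 33 counts or fewer in every library.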
